A study of Mus musculus with 8 samples.

Results

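The 10 genes described here encode CXC chemokines, small secreted proteins that direct leukocyte migration, and were taken by symbol from a count table of 53647 genes: Cxcl1, Cxcl2, Cxcl3, Cxcl9, Cxcl10, Cxcl13, Cxcl14, Cxcl16 and the platelet chemokine genes Pf4 and Ppbp. All 10 had a row in the table, 9 passed the filter on low counts, and Cxcl13 did not. They were measured in 8 polyA RNA-seq libraries of sorted C57BL/6 mouse leukemia macrophages. In 4 libraries (E-Mac, MSC-educated macrophages) the macrophages had been kept for 12 h with mesenchymal stromal cells, the fibroblast-like support cells of marrow and other tissues, and in the other 4 (Mac) for 12 h without them. Both groups are leukemia macrophages, and no macrophages of leukemia-free mice were analysed here. Separate animals or cultures are not stated for the 4 libraries of a group. A p-value here therefore reflects the scatter among these samples alone, and that scatter may be technical.

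CXC chemokines bind G protein-coupled receptors and are held on tissue surfaces by proteoglycans. Those with the amino acids Glu-Leu-Arg (ELR) before the CXC motif, among them the products of Cxcl1, Cxcl2 and Cxcl3, attract neutrophils through Cxcr2. Cxcl9 and Cxcl10 are induced by interferons and attract activated T and NK cells through Cxcr3. Pf4 and Ppbp products are best known from the alpha granules of platelets. In macrophages, NF-kB is the classical inducer of the ELR group.

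Total counts ran from 13377046 to 15740846 in E-Mac and from 11646025 to 15556935 in Mac, with Mac 2 the shallowest. Levels are CPM, each count scaled to a common library total of the tested genes with TMM factors, given as mean ± SD over 4 libraries. Fold changes are log2 values from edgeR's quasi-likelihood test, E-Mac over Mac, ± standard error, and a gene is called at a Benjamini-Hochberg adjusted p under 0.05 over all 13412 genes tested. Macrophage markers (18 genes, among them Adgre1 and Csf1r) summed to 19230 ± 2223 CPM in E-Mac and 17950 ± 733 CPM in Mac (exact two-sided permutation p = 0.286). Lyz2, the lysozyme gene that granulocytes share, fell and was the most abundant of them. Without Lyz2, an exclusion chosen after the values were seen, the sums were 13090 ± 1352 CPM in E-Mac and 6748 ± 417 CPM in Mac, and without the library E-Mac 4 the full sums differed by 2311 CPM (exact p = 0.0286 for both). Of the 18, 10 rose and 2 fell, beside 29.5% and 28.8% of all genes tested. Granulocyte markers (18 genes) were also abundant, at 15010 ± 3431 CPM in E-Mac against 36520 ± 1630 CPM in Mac (exact p = 0.0286, the smallest that 4 against 4 libraries can give). Of these, 2 rose and 12 fell (beside the same shares of all genes), and their part in the results below was not tested. In bulk RNA, fewer cells of a type and less RNA per cell cannot be told apart.

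Of the 9 tested chemokine genes, 6 rose, 1 fell and 2 did not pass. Over all genes tested, 58.3% were called, 29.5% higher and 28.8% lower in E-Mac. Ppbp, Pf4, Cxcl3, Cxcl14, Cxcl10 and Cxcl16 rose, Cxcl9 fell, and neither Cxcl1 nor Cxcl2 passed. The median log2 fold change of the 9 was 4.21, beside -0.003 over all genes tested, and Cxcl13, which failed the filter, is not in it. The groups did not overlap for the 7 called genes, 6 higher and 1 lower. Of all genes tested, 53.9% had groups that did not overlap, 26.7% higher and 27.2% lower in E-Mac. An increase of 16-fold or more, a size chosen after the values were seen, was called for 5 of the 9 and for 0.887% of all genes tested, and one of 64-fold or more for 3 of the 9 and for 0.373%. A gene nearly absent from Mac, such as Ppbp or Pf4 (2 and 33 counts there in all), passed the filter on low counts only through E-Mac. A large increase is then partly built into passing, and no test was drawn from these shares.

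**Figure D1:**
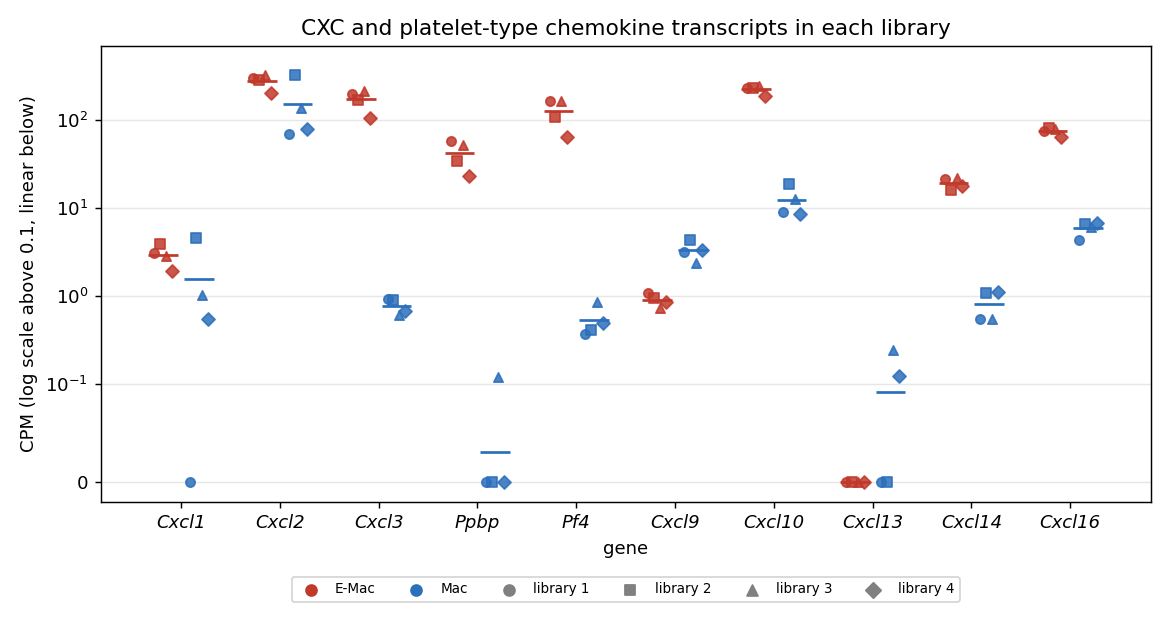
CPM of each chemokine gene in each library (vertical axis logarithmic above 0.1 and linear below), E-Mac in red and Mac in blue, with marker shape for the library number and a horizontal line at the group mean. The groups are far apart for Cxcl3, Ppbp and Pf4, whereas the Mac 2 value of Cxcl2 lies above all 4 E-Mac values.

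The upstream sequences of the ELR genes Cxcl1, Cxcl2 and Cxcl3, and of the interferon-induced pair Cxcl9 and Cxcl10, are given first, because close relatives within each set had very different fold changes. They are RefSeq sequences on GRCm38.p6 (mm10), with capitals for 2 motifs searched on both strands in the 250 bases before each annotated start. The form of the NF-kB motif was GGG, any 3 bases, then TTCC. The form of the interferon-stimulated response element (ISRE) was GAAA, any 2 bases, then GAAA. For Cxcl1, Cxcl2 and Cxcl3 the bases from -110 to -30 are shown, at chr5:90891135-90891215, chr5:90903789-90903869 and chr5:90785991-90786071 (plus strand).
Cxcl1: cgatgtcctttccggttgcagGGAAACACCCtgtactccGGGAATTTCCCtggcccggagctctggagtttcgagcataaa
Cxcl2: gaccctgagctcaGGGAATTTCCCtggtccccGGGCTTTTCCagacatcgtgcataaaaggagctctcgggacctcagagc
Cxcl3: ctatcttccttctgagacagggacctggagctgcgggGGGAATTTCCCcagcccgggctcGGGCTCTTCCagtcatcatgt
For Cxcl9 and Cxcl10 the bases from -220 to -91 are shown, at chr5:92328170-92328299 and chr5:92348980-92349109 (minus strand).
Cxcl9: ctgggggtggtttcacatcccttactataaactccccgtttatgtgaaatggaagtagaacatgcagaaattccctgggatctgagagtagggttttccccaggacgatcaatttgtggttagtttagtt
Cxcl10: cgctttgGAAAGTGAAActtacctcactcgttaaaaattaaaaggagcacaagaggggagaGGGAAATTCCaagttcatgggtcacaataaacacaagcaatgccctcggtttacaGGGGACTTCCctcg

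Cxcl1, Cxcl2 and Cxcl3 all carried the run GGGAATTTCCC, which the NF-kB form matches on both strands in overlapping positions, and each had another NF-kB match beside it. Cxcl10 had 2 NF-kB matches and 1 ISRE match. Of the 9 members in the promoter table (all but Cxcl16), 4 had an NF-kB match and 2 an ISRE match, the other being Cxcl14. Over all 27025 promoters of the table the shares were 4.6% and 3.04%. The windows of Cxcl9, Cxcl13, Pf4 and Ppbp held neither form, which says only that these letters are absent there.

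Among the ELR ligands, Cxcl3 rose and its relatives Cxcl1 and Cxcl2 did not pass. Cxcl3 stood at 201, 170, 215 and 107 CPM in E-Mac 1 to 4, against 0.932, 0.916, 0.614 and 0.678 CPM in Mac 1 to 4. Every E-Mac library lay more than 100-fold above every Mac library. The change was 7.79 ± 0.30 (adjusted p = 1.54e-08), and 21 of the 13412 genes tested had a fold change at or above it, Cxcl3 included.

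Cxcl2 was already the most abundant chemokine of the set in Mac. It stood at 305, 289, 326.5 and 205 CPM in E-Mac 1 to 4, and at 70.8, 328, 139.5 and 80.7 CPM in Mac 1 to 4. The E-Mac values were within 1.59-fold of each other, while Mac 2 reached the E-Mac level and the other Mac libraries stayed below it. The difference of 0.87 ± 0.51 did not pass (adjusted p = 0.188). Without Mac 2 it was 1.55 and passed (adjusted p = 0.000782, 0.000782 to 0.314 over all alternatives).

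Cxcl1 was low throughout, at 3.12, 3.92, 2.90 and 1.94 CPM in E-Mac 1 to 4 and 0, 4.66, 1.04 and 0.555 CPM in Mac 1 to 4. The value of 0 in Mac 1 allows up to 0.186 CPM (a count of 3, counting error only). As with Cxcl2, the highest Mac value was in Mac 2, and the groups overlapped. The difference of 1.02 ± 0.83 did not pass (adjusted p = 0.323), and without Mac 2 it was 2.47 and passed (adjusted p = 0.00556, 0.00556 to 0.553 over all alternatives). The NF-kB feedback genes Nfkbia and Tnfaip3 were also highest in Mac 2 among the Mac libraries. Nfkbia, which encodes the inhibitor IkB-alpha, stood at 195 to 238 CPM in E-Mac, 529.5 CPM in Mac 2 and 189 to 278 CPM in the other Mac libraries. Tnfaip3, which encodes the deubiquitinase A20, stood at 111 to 141 CPM in E-Mac, 310 CPM in Mac 2 and 88.3 to 136 CPM in the other Mac libraries. The part of Mac 2 in the Cxcl1 and Cxcl2 results beyond leaving it out was not tested.

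The Cxcl3 and Cxcl2 changes differed from each other. Within a library, log2 CPM of Cxcl3 minus that of Cxcl2 was -0.73 ± 0.159 in E-Mac and -7.30 ± 0.988 in Mac (SD, n = 4 each), a shift of 6.58. The exact two-sided permutation test gave p = 0.0286 (0.0286 adjusted over the 3 pairs compared, and the smallest value possible). In counts, there were 61.6 Cxcl3 reads per 100 Cxcl2 reads in E-Mac and 0.543 in Mac. These genes have similar transcripts: 126 stretches of 50 bases occur in both, and 5.84% of such stretches in Cxcl2 and 4.24% in Cxcl3 occur in a transcript of another gene. The sources used here do not give how reads in such stretches were counted. With 8661 Cxcl2 reads in Mac and 47 Cxcl3 reads, at most 47 Cxcl2 reads can have been counted as Cxcl3 there. Shared reads in E-Mac, and Cxcl3 reads counted as Cxcl2 or dropped, were not tested.

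Ppbp, whose product is cut to a neutrophil-attracting ELR chemokine, was nearly absent from Mac. It had 754, 507, 782 and 323 counts in E-Mac 1 to 4 (58.8, 34.9, 52.7 and 23.2 CPM), against 2 counts in Mac, both in Mac 3. The ratio was 1277 with a 95% counting interval of 353 to 10550, and the test gave an adjusted p of 3.83e-07. Its fitted fold change depends on the prior count. It enters the median and the counts of large increases given above, which would be the same at the lower bound of 353. Without Mac 3 all Mac counts were 0.

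Pf4, which encodes platelet factor 4, a heparin-binding chemokine without ELR, stood at 167, 109.5, 166 and 64.5 CPM in E-Mac 1 to 4, against 0.373, 0.416, 0.860 and 0.493 CPM in Mac 1 to 4. The E-Mac libraries lay far above all Mac libraries and fell into a higher pair (1 and 3) and a lower pair (2 and 4). The change was 7.84 ± 0.48 (adjusted p = 2.11e-06), and 20 of the 13412 genes tested had a fold change at or above it, Pf4 included. Ppbp minus Pf4 in log2 CPM was -1.57 ± 0.094 in E-Mac and -3.44 ± 0.636 in Mac (exact p = 0.0286, adjusted 0.0286), but the Mac value rests on counts of 0 in 3 libraries and on the prior count of 0.5. The shift of 1.86 became 0.44 with a prior count of 2, and it no longer passed without any 1 of the E-Mac libraries (exact p = 0.0571).

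Most tested markers of platelets and megakaryocytes fell, while their summed level rose through 1 gene. Of 18 markers 11 were tested, 3 rose (Thbs1, Selp and Gata1) and 7 fell, beside 29.5% and 28.8% of all genes tested. The sum was 8007 ± 878 CPM in E-Mac and 1139 ± 212 CPM in Mac (exact two-sided permutation p = 0.0286). Thbs1, which encodes the matricellular protein thrombospondin 1 and is made by macrophages too, made up most of it (7637 ± 966 CPM in E-Mac and 667 ± 203 CPM in Mac). Without Thbs1, an exclusion chosen after the values were seen, the sums ran from 281 to 483 CPM in E-Mac and from 453 to 483 CPM in Mac (exact p = 0.114). Gp1bb, a subunit gene of the platelet receptor for von Willebrand factor, fell to 0.333 ± 0.199 CPM in E-Mac, against 1.71 ± 0.421 CPM in Mac (-2.32 ± 0.42, adjusted p = 0.000362). Vwf, the gene of that factor, fell as well (-0.95 ± 0.23, adjusted p = 0.00274). Itga2b and Itgb3, the platelet integrin genes, fell to 26.9 ± 7.504 and 58.0 ± 22.9 CPM in E-Mac, against 42.8 ± 3.34 and 96.9 ± 6.59 CPM in Mac. Selp and Gata1 rose to 9.61 ± 3.11 and 39.2 ± 12.9 CPM in E-Mac, against 5.82 ± 0.741 and 25.9 ± 1.62 CPM in Mac. For both the groups overlapped (adjusted p = 0.0109 and 0.0227 by edgeR). The 7 untested markers averaged 0.0337 to 0.880 CPM in E-Mac and 0.0307 to 0.593 CPM in Mac. Among them Gp6, the platelet collagen receptor gene, had groups that did not overlap and was higher in E-Mac (0.880 ± 0.447 CPM, against 0.134 ± 0.0215 CPM in Mac). None of the 18 was at 0 in all E-Mac libraries, and the part of platelets or megakaryocytes in the Pf4 and Ppbp values was not tested.

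**Figure D2:**
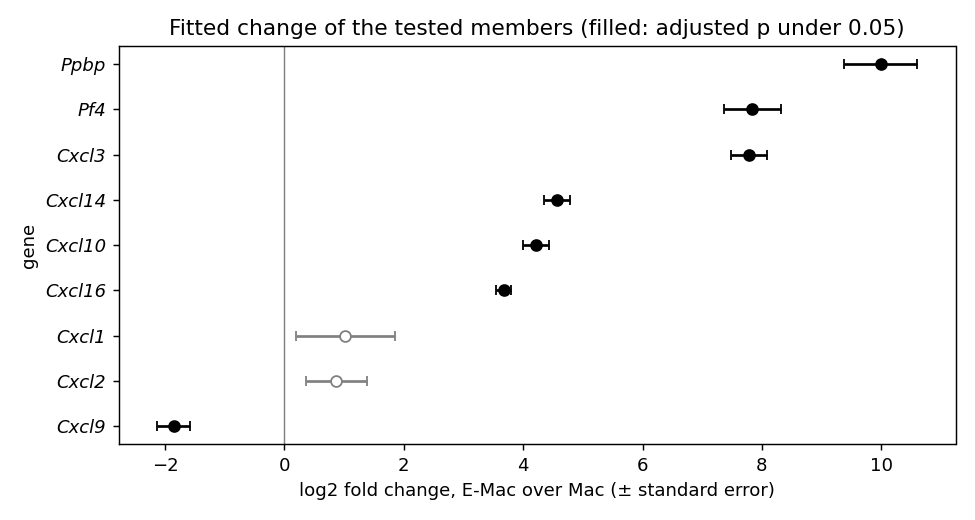
Fitted log2 fold change, E-Mac over Mac, of the 9 tested chemokine genes, with bars for the standard error. Filled points passed an adjusted p of 0.05. Cxcl3 and Pf4 stand near 7.8, Cxcl9 at -1.86 and the open points of Cxcl1 and Cxcl2 near 1, and the fitted value of Ppbp depends on the prior count.

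Cxcl3, Pf4 and Ppbp are direct neighbours. On mm10 (GENCODE M21, all protein coding, plus strand), Ppbp lies on chromosome 5 at 90768518 to 90770063, Pf4 at 90772435 to 90773383 and Cxcl3 at 90786103 to 90789600, within 21083 bases. Cxcl5, another ELR ligand gene, lies before Ppbp at 90759360 to 90761624. Cxcl1 (90891241 to 90893115) and Cxcl2 (90903871 to 90905938) follow 101640 bases after Cxcl3. This order was looked at after the fold changes were known.

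All 4 genes from Cxcl5 to Cxcl3 rose, and all 4 averaged less than 1 CPM in Mac. Cxcl5 had 21, 54, 21 and 22 counts in E-Mac 1 to 4 and 0 in all Mac libraries, at least 42.5-fold higher when the Mac total is set to 3 counts (adjusted p = 3.57e-05). Cxcl15, which follows Cxcl3, had 2 counts in E-Mac and 0 in Mac, both at or under that floor. Beyond Cxcl2, Mthfd2l, a mitochondrial folate enzyme gene, rose (1.40 ± 0.36, adjusted p = 0.00443). After it, Epgn, Ereg and Areg were too low to test, with 2, 8 and 21 counts in E-Mac and 6, 0 and 0 in Mac. Before Cxcl5, the genes Alb, Afm and 5830473C10Rik had no counts, and Afp and Rassf6 were too low to test (0.903 and 0.463 CPM in E-Mac, 0.0926 and 0.124 CPM in Mac).

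**Figure D3:**
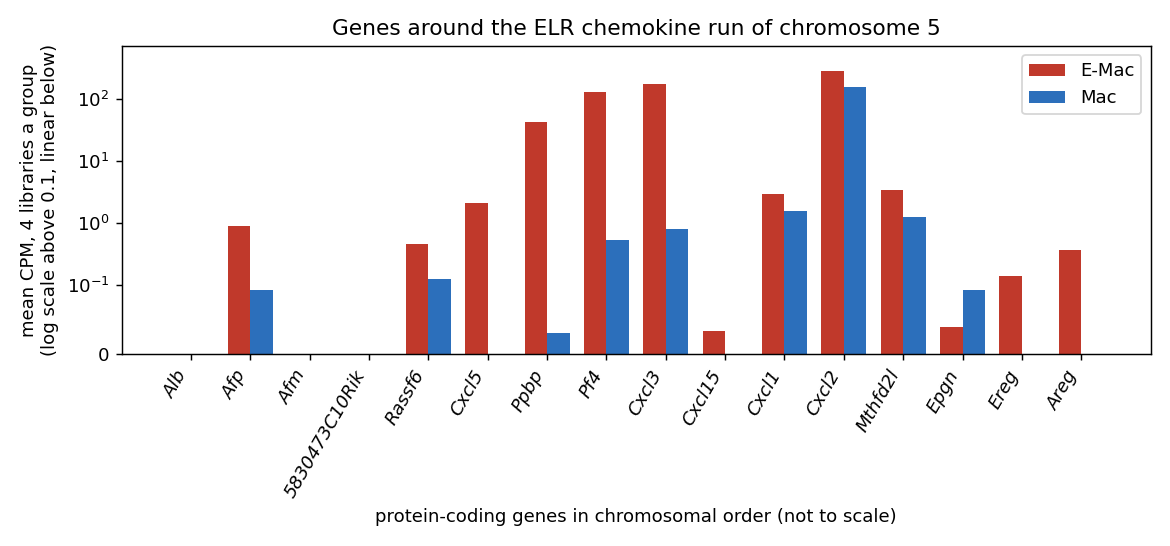
Mean CPM over 4 libraries (axis logarithmic above 0.1 and linear below) of the protein-coding genes with a row in the table, within 300000 bases of the stretch from Cxcl5 to Cxcl2, in chromosomal order, E-Mac left of Mac. From Cxcl5 to Cxcl3 E-Mac is far above Mac, while at Cxcl1 and Cxcl2 the means differ by less than 2-fold.

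The interferon-induced genes Cxcl10 and Cxcl9 moved in opposite directions. Cxcl10 stood at 232, 232, 248 and 188 CPM in E-Mac 1 to 4, against 9.01, 18.7, 12.8 and 8.63 CPM in Mac 1 to 4. All E-Mac libraries lay at least 10-fold above the highest Mac library, Mac 2. The change was 4.21 ± 0.23 (adjusted p = 1.60e-07). Cxcl9 was low, at 1.09, 0.963, 0.741 and 0.863 CPM in E-Mac 1 to 4 and 3.23, 4.41, 2.40 and 3.33 CPM in Mac 1 to 4. Each E-Mac value was below each Mac value, with 51 counts in E-Mac and 198 in Mac in all. Cxcl9 fell by 1.86 ± 0.28 (adjusted p = 7.57e-05).

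Within a library, Cxcl10 exceeded Cxcl9 by 7.90 ± 0.295 log2 units in E-Mac and by 1.83 ± 0.493 in Mac, a shift of 6.07 (exact two-sided permutation p = 0.0286, adjusted 0.0286). Since both genes had separate groups in opposite directions, this p had to be the smallest possible and adds no further evidence. The genes lie 18558 bases apart on the minus strand of chromosome 5, Cxcl9 at 92321347 to 92328079 and Cxcl10 at 92346638 to 92348889. Cxcl10 overlaps exons of Art3 on the other strand, which had 18 counts in E-Mac and 28 in Mac. Cxcl11, the remaining Cxcr3 ligand gene, rose with Cxcl10 (3.60 ± 0.62, adjusted p = 0.000229), at 1.68 ± 0.436 CPM in E-Mac and 0.123 ± 0.174 CPM in Mac.

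In a list of genes of interferon signalling to Cxcl9 and Cxcl10, inhibitors included, 12 of 17 tested rose and 3 fell (median 0.75). Over all genes tested, 29.5% rose and 28.8% fell. Usp18, a negative regulator of interferon receptor signalling, rose (2.42 ± 0.07, adjusted p = 2.66e-11), as did the transcription factor gene Irf7 (2.59 ± 0.08, adjusted p = 3.53e-11) and the feedback inhibitor gene Socs1 (3.04 ± 0.12, adjusted p = 2.24e-10). Of the interferon-gamma receptor genes, Ifngr1 fell (-0.60 ± 0.06, adjusted p = 1.86e-06) and Ifngr2 rose (0.76 ± 0.07, adjusted p = 6.43e-07). Transcripts of interferon-gamma itself (Ifng) were at 0.0344 ± 0.0688 CPM in E-Mac and 0.108 ± 0.145 CPM in Mac, and those of interferon-beta (Ifnb1) at 0.958 ± 0.506 and 0.0723 ± 0.0854 CPM in E-Mac and Mac, both too low to test.

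In the list for NF-kB signalling to the ELR ligands, which also holds inhibitors, 16 of 23 rose and 4 fell (median 0.56). The shares over all genes tested were 29.5% and 28.8%. The kinase gene Ikbke (1.55 ± 0.09, adjusted p = 6.92e-09), the cofactor gene Bcl3 (1.32 ± 0.08, adjusted p = 1.79e-08) and the cytokine gene Il1a (4.19 ± 0.27, adjusted p = 2.74e-08) rose. Zfp36, whose product tristetraprolin binds AU-rich elements and hastens decay of chemokine mRNAs, fell to 1156 ± 87.2 CPM in E-Mac, against 2533 ± 810 CPM in Mac (-1.13 ± 0.19, adjusted p = 0.000393). Nfkbiz, an inducible NF-kB cofactor gene, fell too (-1.77 ± 0.29, adjusted p = 0.00106). Zfp36 and Nfkbiz were both highest in Mac 2, at 3645 and 423.5 CPM. The other Mac libraries stood at 1811 to 2595 CPM for Zfp36 and 175 to 242 CPM for Nfkbiz, and all E-Mac libraries lay below them.

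Cxcl16 encodes a chemokine made as a transmembrane protein, which also takes up oxidised lipoprotein and is released by proteases. It stood at 76.5, 82.9, 79.1 and 64.8 CPM in E-Mac 1 to 4, against 4.35, 6.58, 6.14 and 6.78 CPM in Mac 1 to 4. The E-Mac values lay within 1.28-fold of each other, the narrowest range of the tested members. The change was 3.67 ± 0.13 (adjusted p = 1.22e-10). Cxcl16 lies on chromosome 11 at 70453983 to 70459984 (minus strand) and overlaps exons of Zmynd15 on the other strand, which had 771 counts in E-Mac and 105 in Mac. The sources used here do not give whether counting used strand, and without strand the reads of the overlap cannot be told apart.

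The sheddase genes Adam10 and Adam17, whose products release Cxcl16, rose by less (0.54 ± 0.07 and 0.59 ± 0.06, adjusted p = 2.76e-05 and 4.39e-06). In the list of 13 genes for binding, shedding and trimming chemokines, 9 rose and 2 fell (median 0.54). The shares over all genes tested were 29.5% and 28.8%. The heparan sulfate proteoglycan genes Sdc1 and Sdc4 rose, to 33.5 ± 5.64 and 64.2 ± 9.92 CPM in E-Mac, against 0.825 ± 0.618 and 2.48 ± 0.531 CPM in Mac (5.35 ± 0.34 and 4.68 ± 0.16, adjusted p = 2.10e-07 and 8.67e-11). Mmp13, a collagenase gene, rose too (8.45 ± 0.44, adjusted p = 1.70e-07). Dpp4, the peptidase that trims Cxcl10 and other CXC chemokines, fell to 9.41 ± 1.70 CPM in E-Mac, against 56.2 ± 2.25 CPM in Mac (-2.58 ± 0.12, adjusted p = 9.13e-10).

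Cxcl14, a chemokine gene known mainly from epithelia and stroma, stood at 21.3, 16.3, 22.2 and 18.04 CPM in E-Mac 1 to 4, against 0.559, 1.08, 0.553 and 1.11 CPM in Mac 1 to 4. All E-Mac libraries lay above all Mac libraries. The change was 4.57 ± 0.22 (adjusted p = 1.49e-09). Cxcl14 lies on chromosome 13 at 56288643 to 56296551 (minus strand).

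Cxcl13, whose product attracts B cells through Cxcr5, had 0 counts in all E-Mac libraries, and 4 and 2 counts in Mac 3 and Mac 4. The E-Mac total allows up to 0.0534 CPM. With the E-Mac total set to 3 counts it was 1.85-fold lower in E-Mac, on 6 counts in all and with no test. Mac 1 and Mac 2 were at 0 too, so the groups overlapped. Cxcl13 lies on chromosome 5 at 95956951 to 95961068 (plus strand).

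Taken per length of the longest protein-coding transcript, the order of the members differed between the groups. In E-Mac, Pf4 (215 ± 84.0 RPKM, CPM per kilobase), Cxcl3 (171 ± 47.1), Cxcl10 (166 ± 19.2) and Cxcl2 (151 ± 28.6) led, and neighbours in this order did not differ beyond their spread. Ppbp (39.1 ± 15.1 RPKM), Cxcl16 (28.1 ± 2.89), Cxcl14 (10.7 ± 1.51), Cxcl1 (3.12 ± 0.854) and Cxcl9 (0.317 ± 0.0515) followed, and Ppbp and Cxcl16 again overlapped. In Mac, Cxcl2 (83.3 ± 64.3 RPKM) stood first, before Cxcl10 (9.08 ± 3.46) and Cxcl16 (2.21 ± 0.411). The next 5, Cxcl1 (1.64 ± 2.21), Cxcl9 (1.16 ± 0.287), Pf4 (0.911 ± 0.378), Cxcl3 (0.773 ± 0.160) and Cxcl14 (0.452 ± 0.171), followed closely, with Cxcl13 (0.0802 ± 0.102) and Ppbp (0.0284 ± 0.0567) last.

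The 10 genes together made up 948 ± 197 CPM in E-Mac and 180 ± 127.5 CPM in Mac. The mean share of Cxcl2 in that sum was 29.8% in E-Mac and 83.2% in Mac. Cxcl10 held 24.2% in E-Mac and 7.86% in Mac, Cxcl3 18.1 and 0.583%, and Pf4 13.0 and 0.384%. CPM are not scaled by length, so these are shares of reads and not of transcripts.

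**Figure D4:**
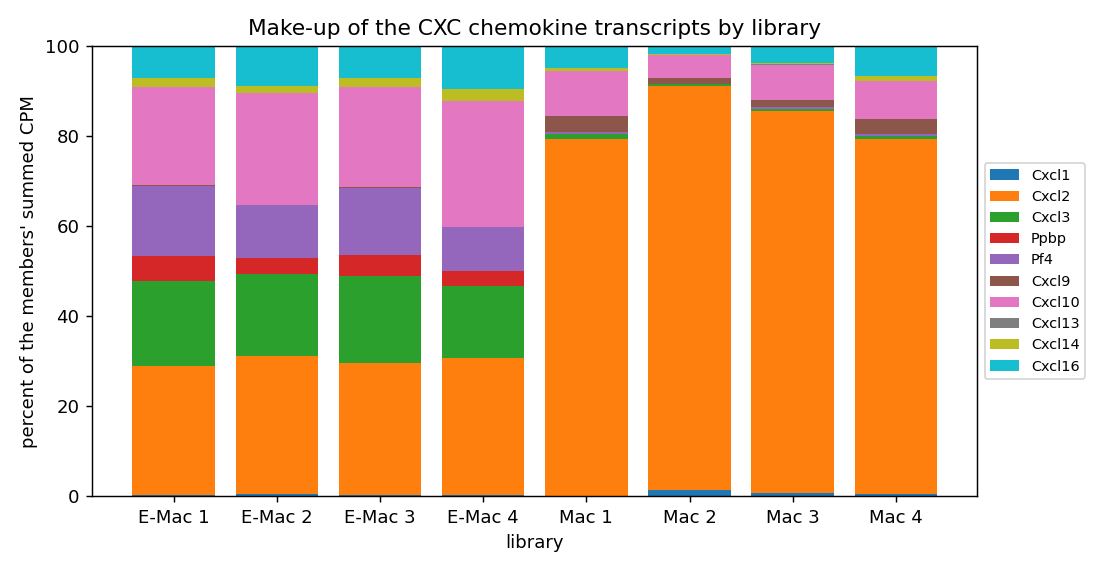
Share of each chemokine gene in the summed CPM of the 10 genes, as a percentage, for the 4 E-Mac and 4 Mac libraries. Cxcl2 makes up 28.6 to 30.7% in the E-Mac libraries and 78.8 to 89.9% in the Mac libraries.

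The E-Mac libraries differed among themselves most for Pf4 and Ppbp, whose highest value was 2.59 and 2.53 times the lowest. E-Mac 4 was the lowest for Cxcl1, Cxcl2, Cxcl3, Pf4, Ppbp, Cxcl10 and Cxcl16. Its summed CPM of stromal markers was also the highest of the E-Mac libraries (1187 CPM, against 1167 CPM in E-Mac 2). Of 20 stromal markers 14 were tested, 11 rose and 1, Fn1, fell, beside 29.5% and 28.8% of all genes tested. The stromal sum was 1089 ± 125 CPM in E-Mac and 3466 ± 250 CPM in Mac, most of it from Fn1, a fibronectin gene that macrophages express. Without Fn1, chosen after the values were seen, the sums were 99.5, 509, 78.2 and 573.5 CPM in E-Mac 1 to 4 and 22.3 to 24.4 CPM in Mac. The E-Mac libraries with the higher stromal marker sums, 2 and 4, were the lower for Pf4, Ppbp, Cxcl3 and Cxcl14. The same libraries had the higher granulocyte marker sums, which were 11820, 19080, 12540 and 16590 CPM in E-Mac 1 to 4. E-Mac 2 was the highest for Cxcl1, Cxcl5 and Cxcl16. Without E-Mac 2 and 4 the 6 increases and the 1 decrease were called again, with 8.24 for Pf4, 8.06 for Cxcl3, 4.74 for Cxcl14, 4.33 for Cxcl10, 3.72 for Cxcl16 and -1.85 for Cxcl9. Leaving them out did not remove the stromal counts, since E-Mac 1 and 3 also lay above Mac in the sums without Fn1. The part of stromal cells or granulocytes in the chemokine values was not tested.

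**Figure D5:**
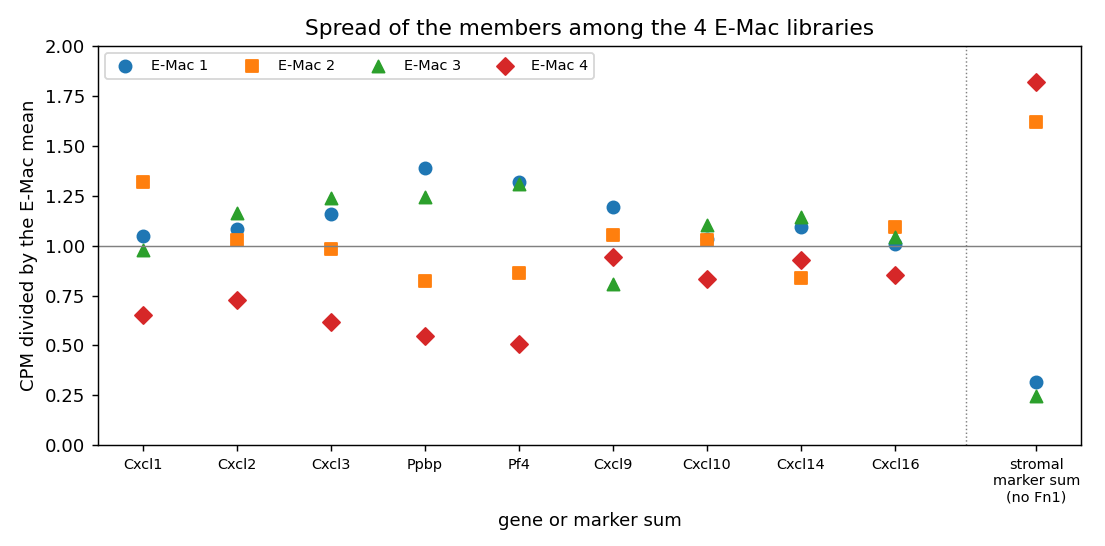
CPM of each chemokine gene in the 4 E-Mac libraries divided by their mean (vertical axis), with the summed stromal markers without Fn1 at the right. E-Mac 4 is at 0.509 for Pf4 and 0.548 for Ppbp, while the stromal sum is high in E-Mac 2 and 4.

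Most genes in a list of 11 chemokine receptor genes fell or were too low to test. Of the 11, 5 were tested, 1 rose and 3 fell (median -0.58), beside 29.5% and 28.8% of all genes tested. The list is wider than the receptors of the chemokines described here, since Cxcl12, the ligand of Cxcr4, is not among them. Of the receptor genes named earlier for these chemokines, Cxcr2 rose, Cxcr3 did not pass and Cxcr5 was too low to test. Cxcr2, the receptor of the ELR group and a neutrophil gene, stood at 312, 556, 345.5 and 543 CPM in E-Mac 1 to 4 and at 326, 277, 295 and 281.5 CPM in Mac 1 to 4. E-Mac 1 lay within the Mac range and E-Mac 2 and 4 well above it (0.57 ± 0.18, adjusted p = 0.0197). Cxcr1 fell (-0.85 ± 0.23, adjusted p = 0.00574), as did Gpr35 (-0.58 ± 0.08, adjusted p = 4.38e-05) and Cxcr4, the Cxcl12 receptor gene (-0.65 ± 0.12, adjusted p = 0.000338). Cxcr3 was low, at 2.15 ± 0.461 CPM in E-Mac and 2.83 ± 0.783 CPM in Mac, and did not pass (-0.40 ± 0.26, adjusted p = 0.206). Cxcl12, the stromal chemokine gene, was too low to test, with 0, 4, 4 and 4 counts in E-Mac 1 to 4 and 37, 7, 15 and 26 counts in Mac 1 to 4.

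The genes most like each member across the 8 libraries were found by the root-mean-square difference of log2 CPM centred on each gene's mean. Where the groups differ much, a small value mostly means a similar fold change (4.31 for Clec4n beside 4.21 for Cxcl10). Shared regulation was not tested. For Cxcl10 they were Clec4n (0.14) and Carmil1 (0.23), for Cxcl16 Slc37a2 (0.16) and the interferon-induced Ifit2 (0.19), and for Cxcl14 Epb41l1 (0.32) and the acute-phase gene Saa3 (0.32). Cxcl2 was closest to Maff (0.18), a small Maf transcription factor gene, and Gm12366 (0.28), and Cxcl9 to Far2 (0.18) and Sgo2a (0.23). Cxcl3 was closest to Gpnmb (0.26) and Flrt3 (0.31), Pf4 to 4930430E12Rik (0.25) and the CC chemokine gene Ccl12 (0.39). The nearest gene to Ppbp was its neighbour Pf4 (1.01), then Flrt3 (1.08), and those to Cxcl1 were Gm45472 (0.73) and Il10 (0.96).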

How the data were processed

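The table the authors deposited holds raw counts by gene symbol for 8 libraries (4 E-Mac, 4 Mac). Per the submitters' processing notes, bcl2fastq, HISAT2, featureCounts, Subread and DESeq2 and the build mm10 were used; the sources used here give no versions, annotation release, strand or multi-mapping settings. From 53673 names, 26 in date form were dropped. All 37 mitochondrial genes stood at 0. The test was that of edgeR 4.0.16 under R 4.3.3 (filterByExpr with minimum count 10 and total 15, TMM, robust quasi-likelihood fit, Benjamini-Hochberg over 13412 genes). The standard error was the log2 fold change over the square root of F. CPM used TMM-scaled totals of the tested genes (factors 0.931 to 0.970 in E-Mac and 1.03 to 1.07 in Mac). RPKM and promoters came from GENCODE M21 and RefSeq (GRCm38.p6). Pairs of members and marker sums were compared by exact permutation over libraries. The script was tested on simulated data.

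The members, lists and tests were chosen with earlier results of these data known. The text names all 10 members, at most the 3 genes of a list with the smallest adjusted p, genes with a direct tie to a member (receptor, protease or regulator), and the 2 genes most like each member; marker genes named beyond these were chosen after their values were seen. The alternatives were RLE, upper-quartile or no scaling factors, 2 other filters, DESeq2 1.42.0, limma-voom (limma 3.58.1), no robust option, a stricter threshold, a replicate block, each library left out, and E-Mac 2 and 4 left out. Libraries of 1 group differed by more than sampling noise in all 12 pairs (lowest chi-square per degree of freedom 4.85). Intervals and floors cover counting error only.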

Additional observations from a re-analysis of the deposited data

Results flagged for a closer look

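Among 19 sets of 4 values (each chemokine gene in each group), 1 stood out for a library far from the others. Ppbp was at 0.123 CPM in Mac 3, from 2 counts, and at 0 in Mac 1, Mac 2 and Mac 4. Chance flags about 1 in 20 such sets, and a value of 2 counts beside 0 always meets this criterion.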

How the results depend on the processing

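The 6 increases kept their direction and call under all 18 alternative fits, and the decrease of Cxcl9 under the 17 that tested it. With at least 10 CPM in 4 libraries Cxcl9 was not tested, so 0 members were called lower. Log2 fold changes ran from 7.64 to 8.06 for Cxcl3, 7.69 to 8.24 for Pf4, 4.41 to 4.77 for Cxcl14, 4.07 to 4.48 for Cxcl10, 3.53 to 3.75 for Cxcl16 and -1.999 to -1.69 for Cxcl9. Ppbp ran from 9.62 to 12.25, which depends on the prior count. Cxcl1 and Cxcl2 passed without Mac 2 (2.47 and 1.55), and the cause was not tested. Scaling by library size alone moved the median of all genes by -0.15, and upper-quartile factors by -0.10, with all member directions kept. Of the marker sums, the E-Mac minus Mac difference turned to -102 CPM for the platelet list without Thbs1 and to 292 CPM for the stromal list without Fn1, since these genes made up most of their sums.

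Replicate numbers did not pair the samples: deviations of same-numbered libraries correlated by -0.0912 to 0.0160, and no library correlated best with its own number. With the replicate number as a block, Cxcl2 was 1.13 and passed (adjusted p = 0.00942), and no other member's call changed. Within blocks the smallest p for a pair is 0.125, so the 3 pairs could not pass there (6.07 for Cxcl10 minus Cxcl9, 6.58 for Cxcl3 minus Cxcl2 and 1.86 for Ppbp minus Pf4). Without E-Mac 2 and 4 the smallest p is 0.0667. The pairs were then at 6.18, 6.70 and 1.85, and the differences of the marker sums at 7452 CPM (platelet), -2465 CPM (stromal), -24340 CPM (granulocyte) and -11.1 CPM (B and T cell). With 1 library left out, the first 2 pairs passed in all 8 cases, which for Cxcl10 minus Cxcl9 was fixed by the separate groups of both genes. Ppbp minus Pf4 ran from 1.69 to 2.17 and passed only in the 4 cases that left out a Mac library. The macrophage sum ran from 638 to 2311 CPM and passed only without E-Mac 4, and it reached 6338 CPM without Lyz2. The B and T cell sum ran from -8.71 to -4.90 CPM and did not pass without any 1 of the Mac libraries (exact p of 0.0571 to 0.0857).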

Other observations

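Among 11 other ligand and receptor genes too low to test, 4 had groups that did not overlap, beside 53.9% of all genes tested. Of these, 3 were higher in E-Mac and Cxcl12, described above, was lower. The membrane-bound chemokine gene Cx3cl1 averaged 0.804 ± 0.315 CPM in E-Mac and 0.0615 ± 0.0711 CPM in Mac. Cxcr5, the Cxcl13 receptor gene, averaged 1.78 ± 0.959 CPM in E-Mac and 0.222 ± 0.173 CPM in Mac. Of 14 B and T cell markers 9 were tested, 4 rose and 4 fell in E-Mac (29.5% and 28.8% of all genes tested). The B cell gene Pax5 was among those that rose (2.19 ± 0.40, adjusted p = 0.000383), and the B cell gene Cd79b fell (adjusted p = 0.00912, both by edgeR). Cd79b was chosen after its values were seen, and the part of B cells in the Cxcr5 values was not tested. The scavenging receptor gene Ackr3 averaged 0.316 ± 0.257 CPM in E-Mac and had 0 counts in Mac.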
